A study of Mus musculus with 6 samples.

Results

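The genes described here make, import, store and export cholesterol and fatty acids in cells labelled as dendritic cells from tumour-bearing mice given Satb1 siRNA. They were chosen by symbol from a list of 34 named genes, of which 32 were found among the 27634 genes of the deposited table; Hmgcs1 and Lpl were not analysed here. A total of 16 of the 32 belong to synthesis (8 sterol enzymes, 3 sterol sensors and regulators, 5 genes of fatty acid synthesis). The other 16 belong to uptake, storage, efflux and breakdown.

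The series holds 6 bulk RNA-seq libraries of cells labelled as cancer-associated dendritic cells. All came from C57BL/6 mice carrying ID8-Defb29/Vegf-a, an ovarian tumour line made to express beta-defensin 29 and VEGF-A. The tumours grew for 32 to 38 days, while the mice were given 100 µg of siRNA complexed with rhodamine-conjugated polyethylenimine, a carrier polymer. In the experiment the labels call highly downregulated (the high experiment) there were 2 libraries with Satb1 siRNA and 2 with non-targeting (NT) siRNA. In the experiment with low downregulation (the low experiment) there was 1 library with Satb1 siRNA and 1 with NT siRNA. Satb1 encodes a chromatin-organising protein. The siRNA reaches every cell that takes up the complexes, and neither the sorting of the cells nor the number of mice behind a library is given in the sources used here.

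Cells make cholesterol from acetyl-CoA through the mevalonate and sterol pathway. When membrane sterol is low, the SREBP transcription factors are released from the endoplasmic reticulum and switch on the enzymes of sterol and fatty acid synthesis. When sterol is plentiful, oxysterols activate the LXR nuclear receptors, which raise exporters and apolipoprotein E. Tumour-associated phagocytes also take up lipid from outside and keep it in droplets, and lipid-laden dendritic cells are known to present antigen poorly.

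Total counts were 51710612 and 49022011 with Satb1 siRNA and 67774712 and 71272720 with NT siRNA in the high experiment. They were 24553454 with Satb1 siRNA and 27029554 with NT siRNA in the low experiment. The repeats of each high group differed by little more than sampling noise (chi-square per gene 1.37 for Satb1 siRNA and 1.202 for NT, where counting alone gives about 1). The edgeR test of the high experiment takes the repeats as replicates, so its SE, p-values and calls compare libraries rather than mice or cultures. As evidence on the condition each high group counts as 1 sample, and only the joint fit of both experiments sums the repeats. Satb1 itself stood at 3.12 and 3.58 CPM (counts scaled to the size of the library) with Satb1 siRNA against 16.6 and 15.3 CPM with NT siRNA in the high experiment, a log2 fold change of -2.25 (SE 0.072, adjusted p = 1.74e-39 in edgeR's quasi-likelihood test). In the other experiment it stood at 7.42 CPM with Satb1 siRNA against 8.89 CPM with NT siRNA, a ratio of 0.836 (95% counting interval 0.670 to 1.04). That interval includes 1, and a lower level could not be shown at the depth of these libraries. With library size alone Satb1 had 6.72 CPM with Satb1 siRNA against 6.29 CPM with NT siRNA there, so its direction depended on the scaling.

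The cell type label was checked against markers. Levels of 6 of the 7 classical dendritic cell genes were at most 20.3 CPM in the high experiment, and H2-Ab1, an MHC class II gene that other antigen-presenting cells share, had 96.9 and 95.3 CPM with Satb1 siRNA against 177 and 176 CPM with NT siRNA. Itgax, which encodes CD11c, had 5.47 and 4.94 CPM with Satb1 siRNA against 20.3 and 20.2 CPM with NT siRNA. Itgax had 272 CPM with Satb1 siRNA and 159 CPM with NT siRNA in the low experiment. Flt3, the growth factor receptor of classical dendritic cells, stayed at or below 1.88 CPM in every high library, while the macrophage gene Emr1 had 244 to 409 CPM in all 6 libraries. In the high libraries Itgax and Flt3 thus stood below Emr1.

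Promoter sequences are shown for the genes on which the comparisons below turn. Fasn and Cyp51 were higher with Satb1 siRNA in both experiments, Insig1 was higher in the high and lower in the low experiment, and Npc2 was lower in both. Plin2 was lower in the high experiment, and in the low one its direction depended on the scaling. Acsl1 had the lowest ratio of all members in the low experiment. The 250 bases before each RefSeq transcription start on GRCm38.p6 are given 5′ to 3′ on the gene's strand, with the sterol regulatory element TCACNCCAC, the E-box CACGTG, the CCAAT box and the GC box GGGCGG in capitals where either strand holds them.
Fasn: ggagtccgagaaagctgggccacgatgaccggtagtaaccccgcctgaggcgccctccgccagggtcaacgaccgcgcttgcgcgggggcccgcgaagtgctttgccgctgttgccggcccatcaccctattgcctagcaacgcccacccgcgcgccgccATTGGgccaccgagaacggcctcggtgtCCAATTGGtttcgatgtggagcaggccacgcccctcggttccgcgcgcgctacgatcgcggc
Cyp51: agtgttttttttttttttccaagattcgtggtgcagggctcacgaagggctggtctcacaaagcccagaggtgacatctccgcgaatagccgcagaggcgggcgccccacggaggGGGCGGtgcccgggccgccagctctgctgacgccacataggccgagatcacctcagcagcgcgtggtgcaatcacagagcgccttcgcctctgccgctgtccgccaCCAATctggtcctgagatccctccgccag
Insig1: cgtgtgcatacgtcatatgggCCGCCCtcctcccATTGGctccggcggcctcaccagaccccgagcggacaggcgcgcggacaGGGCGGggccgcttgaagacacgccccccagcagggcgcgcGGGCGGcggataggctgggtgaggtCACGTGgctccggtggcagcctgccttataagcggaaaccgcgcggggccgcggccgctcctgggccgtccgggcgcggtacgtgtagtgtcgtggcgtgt
Plin2: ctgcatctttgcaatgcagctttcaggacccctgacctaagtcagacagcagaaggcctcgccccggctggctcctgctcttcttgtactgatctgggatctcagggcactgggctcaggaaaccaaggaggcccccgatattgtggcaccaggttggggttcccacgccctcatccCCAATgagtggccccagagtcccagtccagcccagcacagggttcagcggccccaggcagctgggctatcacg
Npc2: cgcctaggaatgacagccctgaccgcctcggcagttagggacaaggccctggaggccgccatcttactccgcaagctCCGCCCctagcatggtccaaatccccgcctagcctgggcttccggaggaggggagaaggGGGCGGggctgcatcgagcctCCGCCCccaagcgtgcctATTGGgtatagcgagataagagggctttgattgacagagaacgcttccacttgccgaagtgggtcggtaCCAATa
Acsl1, the second of its starts in the table: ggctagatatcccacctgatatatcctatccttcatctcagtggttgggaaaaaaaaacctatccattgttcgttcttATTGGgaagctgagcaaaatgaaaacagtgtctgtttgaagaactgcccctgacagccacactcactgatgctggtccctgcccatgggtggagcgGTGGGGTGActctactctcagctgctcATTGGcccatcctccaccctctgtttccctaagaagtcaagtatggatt

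On that build the windows lie at chr11:120824548-120824797 (Fasn, minus strand), chr5:4104698-4104947 (Cyp51, minus), chr5:28071162-28071411 (Insig1, plus), chr4:86670060-86670309 (Plin2, minus), chr12:84773113-84773362 (Npc2, minus) and chr8:46490716-46490965 (Acsl1, plus). Of the 32 genes 23 matched the RefSeq table, with 33 windows. The CCAAT box, bound by NF-Y, which acts with SREBP at many sterol genes, was found in 20 of the 33 windows, against 33.8% of all 32851 windows of that length. The GC box, bound by the Sp family, was found in 19 of 33, against 32.7% of all. The sterol element was found in 1 window, that of Acsl1 shown, against 1.05% of all. The window of the first Acsl1 start, not shown, held 4 GC boxes and 0 sterol elements, E-boxes or CCAAT boxes. Fasn holds a pair of overlapping CCAAT matches that read as 1 palindrome, beginning 62 and 59 bases before the start. The E-box of Insig1 begins 101 bases before its start, and 3 of 33 windows held one, against 6.02% of all. These matches describe letters only.

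The levels of the genes were compared with each other in FPKM, the authors' deposited value, which is scaled to transcript length and to the fragments of the library. By their medians, uptake, storage and efflux genes were far more abundant than synthesis genes, though single genes crossed. In the high experiment with NT siRNA the synthesis gene Scd2 had 55.3 FPKM and the efflux regulator Nr1h3 2.87 FPKM (means of the repeats). Apoe, the lipoprotein component that carries cholesterol out of phagocytes, led in every library, at 10694 and 10629 FPKM with Satb1 siRNA against 8135 and 8112 FPKM with NT siRNA in the high experiment. The low libraries had 3617 FPKM with Satb1 siRNA against 5617 FPKM with NT siRNA. The scavenger receptor gene Cd36 and the droplet coat gene Plin2 followed in the high NT libraries. Dhcr7, the reductase of the last step of cholesterol synthesis, was lowest there, at 1.14 FPKM with Satb1 siRNA and 1.235 FPKM with NT siRNA (means of the repeats). The median synthesis gene had 6.95 FPKM with Satb1 siRNA and 6.82 FPKM with NT siRNA in the high experiment, against 77.9 and 101.7 FPKM for the median gene of uptake, storage and efflux. The synthesis medians of the low experiment were 7.49 FPKM with Satb1 siRNA and 3.71 FPKM with NT siRNA, against 67.8 and 51.4 FPKM for uptake, storage and efflux. The sources used here do not say how the FPKM were scaled between libraries, so differences between groups are given below on the scaled CPM only.

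**Figure D1:**
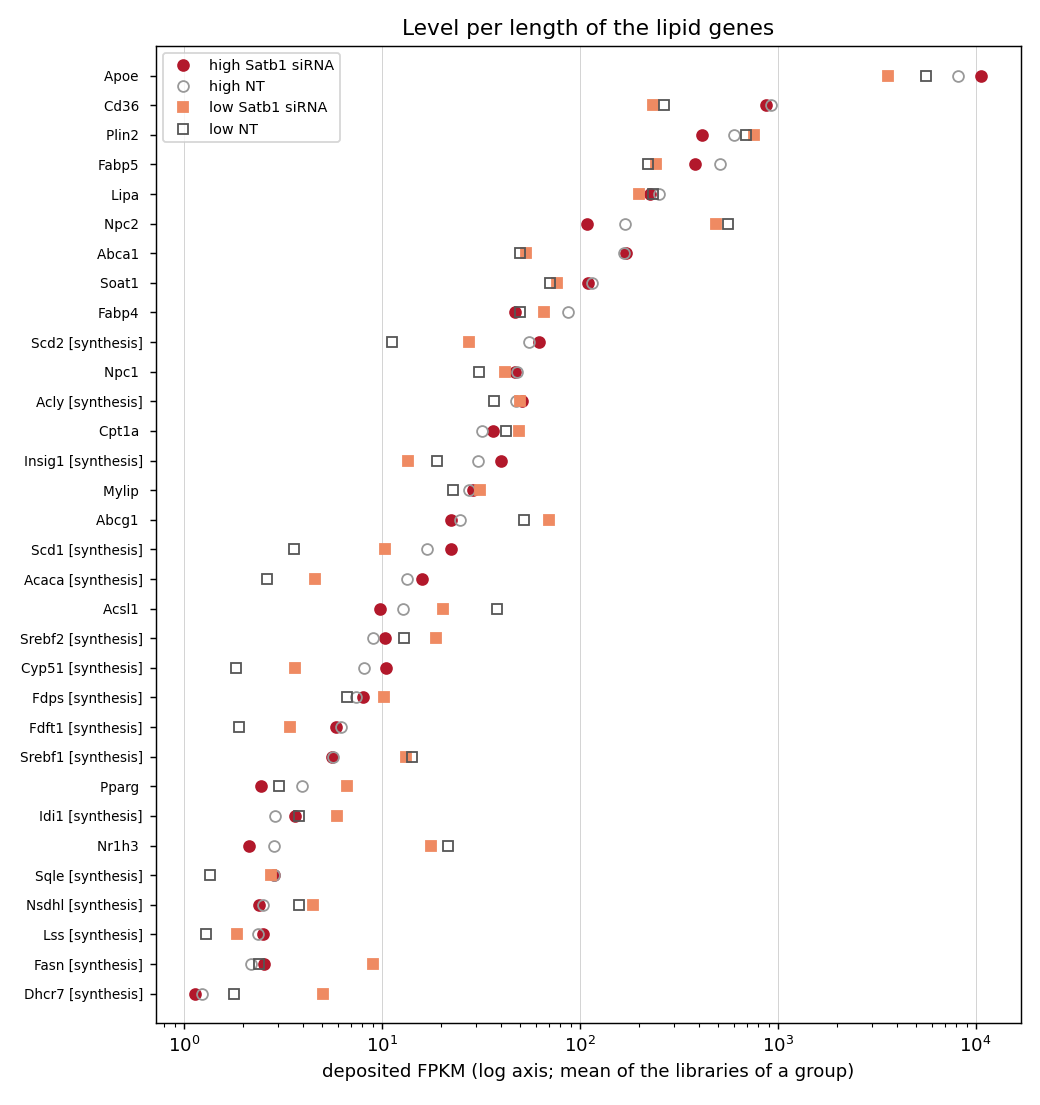
Deposited FPKM (log axis) of the 32 lipid genes, ordered by their level with NT siRNA in the high experiment; each mark is the mean of the libraries of a group (2 in the high, 1 in the low experiment). Synthesis genes, marked in brackets, fill most of the lower rows, with Dhcr7 at 1.235 FPKM with NT siRNA in the high experiment and Apoe at 8123 FPKM.

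The comparison of Satb1 siRNA with NT siRNA asks how lipid genes differ with the siRNA against Satb1. The median synthesis gene lay above the median gene of uptake, storage and efflux in both experiments. In the high experiment the median log2 fold change was 0.062 for the 16 synthesis genes and -0.19 for the 16 others, beside 0.011 for all 20242 genes tested. In the low experiment the median log2 ratio was 0.34 for synthesis and -0.24 for the others, beside -0.065 for the 12977 genes whose log2 CPM averaged at least 0. In the high experiment the synthesis median was 0.035 without the second Satb1 siRNA library, 0.039 without the second NT library and 0.12 with library size alone. The 51 further pathway genes had high medians of -0.015 for synthesis and -0.086 for uptake, storage and efflux. The gap between the medians (synthesis minus the others) was 0.26 in the high and 0.59 in the low experiment on the log2 scale. Rescaling a library moves all its genes together, so the gap could hardly change with the scaling. The medians did change: with library size alone the low medians were 0.70 for synthesis and 0.11 for the others. That of all genes was then 0.29. Leaving out 1 high library each gave gaps of 0.23 to 0.29 in the high experiment. The genes were picked with earlier results of these libraries known, so no list test was made.

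In the high experiment 9 of the 32 genes were called higher and 14 lower in edgeR's quasi-likelihood test at an adjusted p under 0.05. The background was wide, since 32.8% of all genes tested were called higher and 33.2% lower, 66% in all. Of the synthesis genes 7 were called higher, 1 lower and 8 not. Of the others 2 were called higher, 13 lower and 1 not. Past 1.5-fold there were 0 genes higher (background 14.8%) and 4 lower (background 9.8%), all 4 of them in storage, uptake and lysosomal release. The low experiment had 18 of 32 genes above a log2 ratio of 0 (background 44.1%), 7 of them at least 1.5-fold higher (background 14.2%), and 5 genes at least 1.5-fold lower (background 11.6%). Of those 7, 6 were synthesis genes, and of those 5, 4 were not. In bulk RNA fewer cells of a type and less RNA per cell cannot be told apart.

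**Figure D2:**
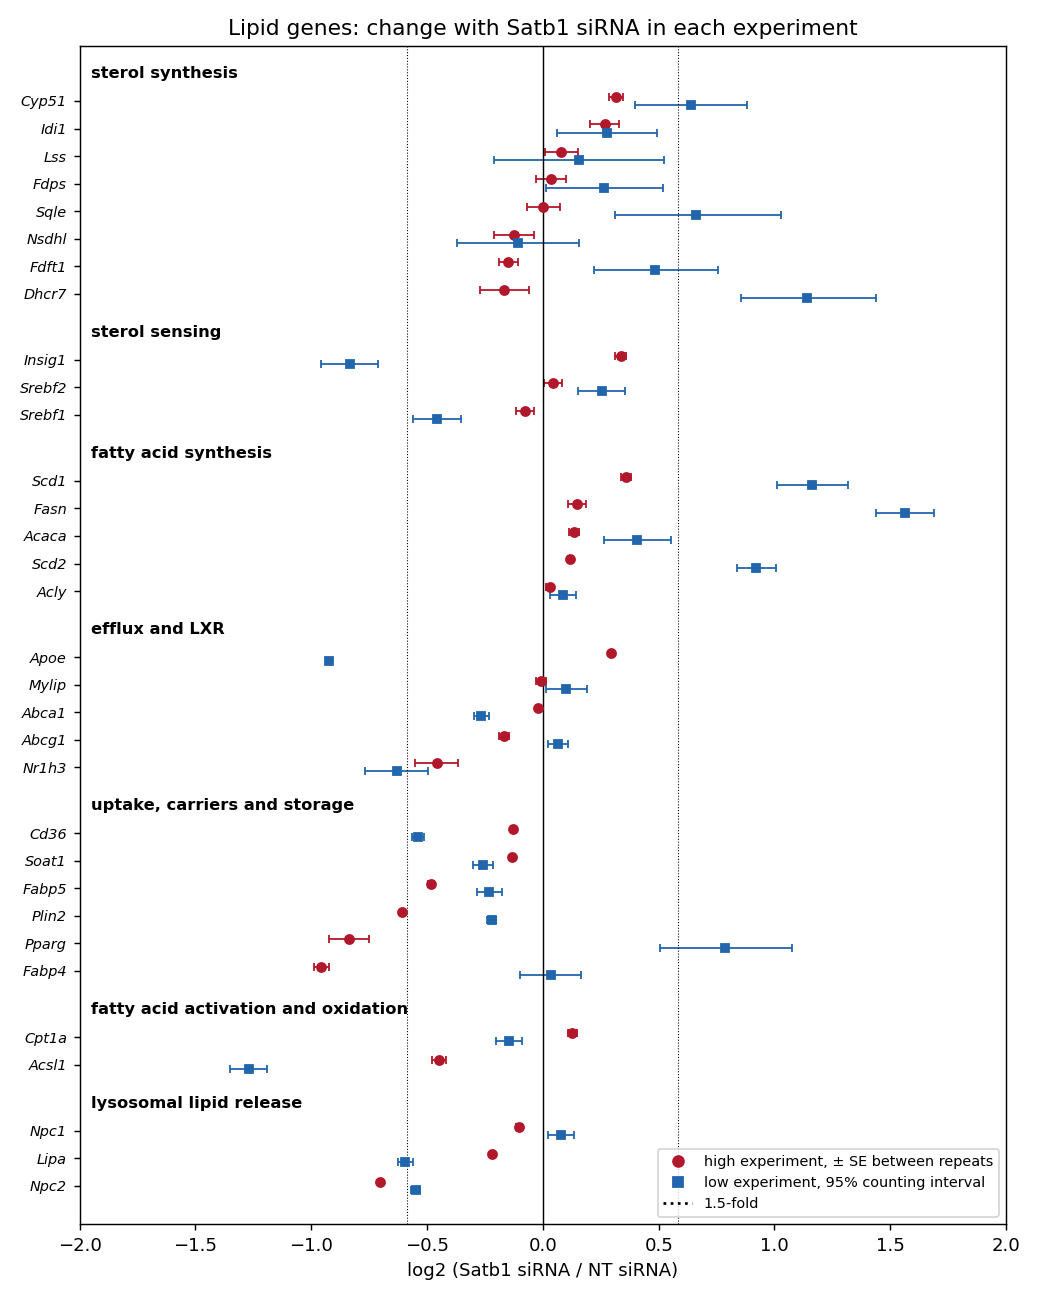
Log2 of Satb1 siRNA over NT siRNA for the 32 lipid genes by role; red circles are the high experiment with the SE between repeats, blue squares the low experiment with 95% counting intervals, and dotted lines mark 1.5-fold. All 5 fatty acid synthesis genes lie right of 0 in both experiments, from 0.030 to 0.36 in the high and from 0.088 to 1.56 in the low one, while Apoe, Insig1 and Pparg lie on opposite sides.

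Fatty acid synthesis genes gave the most uniform pattern, with all 5 above 0 in both experiments. Of these, 4 rose in the high experiment (background 32.8%). Acly, which makes cytosolic acetyl-CoA from citrate, did not pass the test (log2 fold change 0.030, edgeR adjusted p = 0.0798). Fasn, the synthase that builds palmitate, had 22.4 and 22.5 CPM with Satb1 siRNA against 20.3 and 20.4 CPM with NT siRNA in the high experiment. The low libraries had 102 CPM with Satb1 siRNA against 34.6 CPM with NT siRNA. The Fasn groups did not overlap in the high experiment, where its log2 fold change was 0.15 (SE 0.039, edgeR adjusted p = 6.94e-04). The Fasn call was lost in DESeq2 (adjusted p = 0.0515), where its log2 fold change was 0.14. The ratio of Satb1 siRNA to NT siRNA in the low experiment, called the low ratio below, was 2.95 for Fasn (95% counting interval 2.71 to 3.23) and was the highest of all 32 genes.

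Scd1 and Scd2 encode desaturases that put the first double bond into fatty acids, and their reads may be shared since the genes are paralogs. Scd1 had 104.7 and 106.7 CPM with Satb1 siRNA against 82.5 and 83.1 CPM with NT siRNA in the high experiment. It had 57.0 CPM with Satb1 siRNA against 25.4 CPM with NT siRNA in the low experiment. Its log2 fold change of 0.36 (SE 0.022, edgeR adjusted p = 8.35e-24) was the largest rise among the 32 genes in the high experiment. Its low ratio was 2.24 (2.02 to 2.49). Scd2 had 304 and 302 CPM with Satb1 siRNA against 279.5 and 280.5 CPM with NT siRNA in the high experiment, and 170.2 CPM with Satb1 siRNA against 89.8 CPM with NT siRNA in the low one. Acaca, whose enzyme makes malonyl-CoA, rose by 0.13 on the log2 scale (edgeR adjusted p = 4.87e-07) and had a low ratio of 1.33. In both experiments Satb1 siRNA libraries lay above their own controls for Scd1, Scd2 and Acaca, yet the low Satb1 siRNA library stayed below the high NT libraries.

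Markers of other cells also differed in the low experiment. The summed mesothelial and epithelial markers (7 of 7 found, none at 0) came to 605 CPM with Satb1 siRNA against 168 CPM with NT siRNA, a ratio of 3.60. The same sum in the high experiment was 702 and 696 CPM with Satb1 siRNA against 643 and 645 CPM with NT siRNA. Summed neutrophil markers (5 of 6 found) were 88.1 CPM with Satb1 siRNA against 283 CPM with NT siRNA in the low experiment. Summed monocyte markers were 1995 CPM with Satb1 siRNA against 3314 CPM with NT siRNA there. The monocyte list was divided, and Chi3l3 (ratio 0.306) and F13a1 (0.498) made up most of the lower sum. Ly6c2 had a ratio of 0.778, Plac8 of 0.983 and Ccr2 of 1.08. The part of these cells in the higher synthesis genes of the low experiment was not tested. In the high experiment the mesothelial sum had a ratio of 1.085, with 5 of its 7 genes called higher (background 32.8%) and 0 lower. Ratios there were 1.085 for Scd2, 1.098 for Acaca, 1.108 for Fasn and 1.28 for Scd1. The part of these cells in those rises was not tested either.

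**Figure D3:**
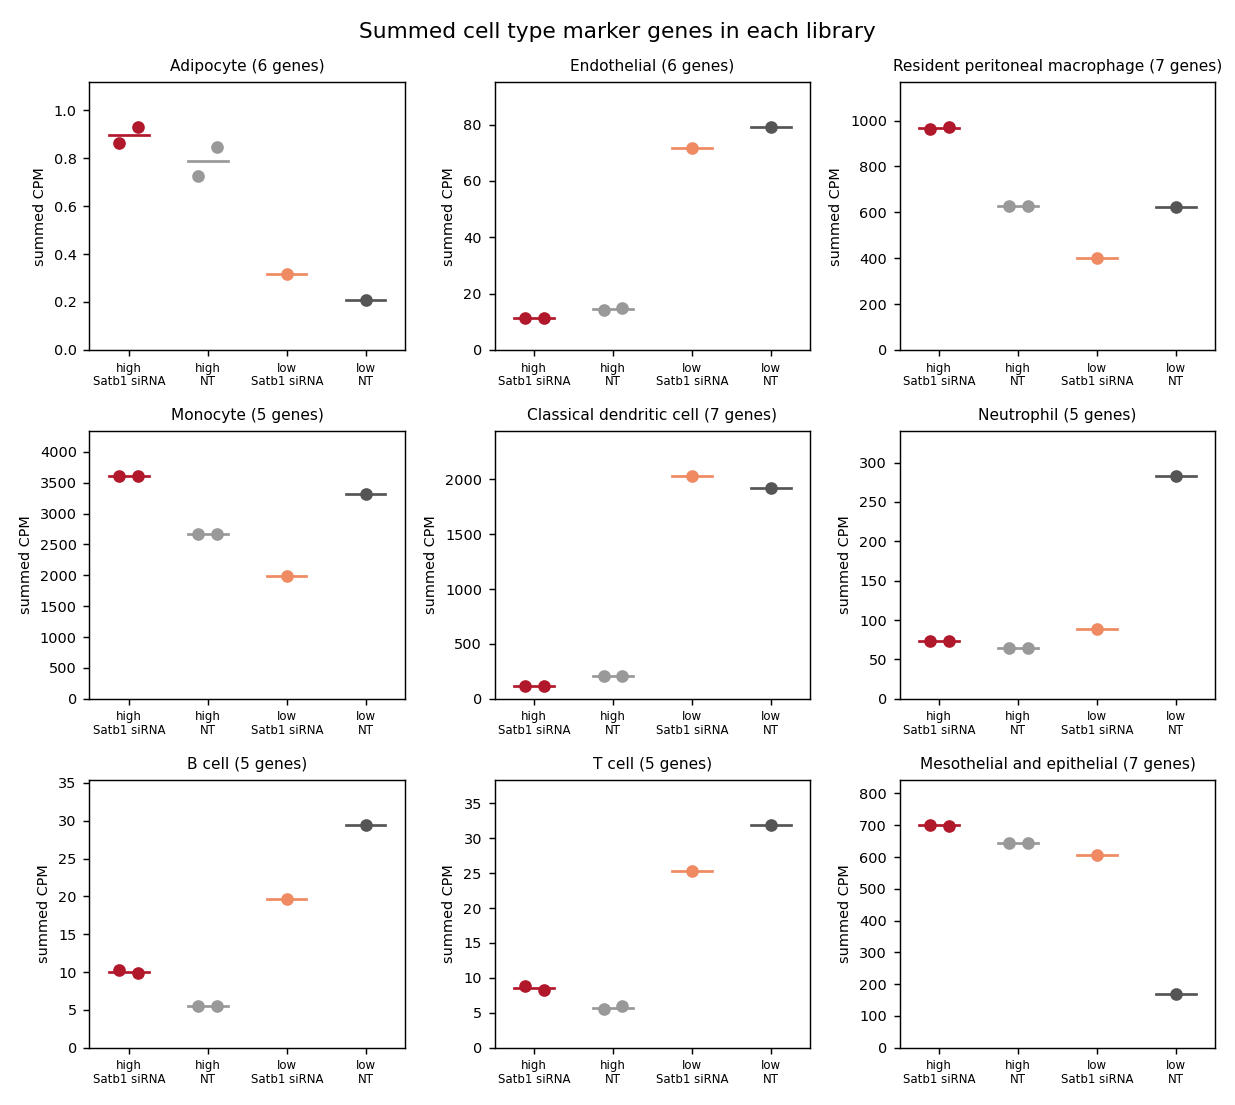
Summed CPM (TMM-scaled) of 9 cell type marker lists in each library; points are libraries and short lines group means, with axes starting at 0. The mesothelial and epithelial sum is 168 CPM in the low NT library and 605 to 702 CPM in the low Satb1 siRNA and the 4 high libraries, while the adipocyte sum stays under 1 CPM throughout.

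Of 8 further genes of fatty acid synthesis and desaturation, 6 were called higher (background 32.8%), 1 lower (33.2%) and 1 not in the high experiment. Of the 8, 6 were above 0 in the low experiment (background 44.1%) and 4 at least 1.5-fold higher (14.2%). Elovl1, an elongase of very long chains, fell by 0.59 on the log2 scale in the high experiment (edgeR adjusted p = 5.16e-21) and had a low ratio of 0.993. The desaturase gene Fads2 (chosen after its values were seen) had 34.8 CPM with Satb1 siRNA against 7.42 CPM with NT siRNA in the low experiment, a ratio of 4.67 (3.91 to 5.64), and rose by 0.39 in the high experiment (edgeR adjusted p = 5.68e-12).

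Sterol synthesis genes were divided in the high experiment and mostly higher in the low one. Of the 8, 2 rose in the high experiment (background 32.8%), 1 fell (33.2%) and 5 did not pass the test. Cyp51, the lanosterol demethylase, had 40.7 and 42.7 CPM with Satb1 siRNA against 33.7 and 33.5 CPM with NT siRNA, a log2 fold change of 0.32 (SE 0.031, edgeR adjusted p = 9.32e-15). Idi1, the isomerase that supplies the isoprenoid building block, had 11.5 and 10.4 CPM with Satb1 siRNA against 9.62 and 8.68 CPM with NT siRNA, a log2 fold change of 0.27 (SE 0.062, edgeR adjusted p = 1.33e-04). Fdft1, the squalene synthase that commits carbon to sterols, fell by 0.15 (SE 0.041, edgeR adjusted p = 1.00e-03). Fdps, Sqle, Lss, Nsdhl and Dhcr7 had log2 fold changes between -0.17 and 0.080 with edgeR adjusted p of 0.161 to 0.990. Sqle had 7.08 and 6.92 CPM with Satb1 siRNA and 7.29 and 6.77 CPM with NT siRNA, so its groups overlapped. Dhcr7 had 2.85 and 2.99 CPM with Satb1 siRNA and 3.14 and 3.42 CPM with NT siRNA.

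Of the 8 sterol enzymes 7 were above 0 in the low experiment (background 44.1%), and 3 were at least 1.5-fold higher (14.2%). Dhcr7 had 16.1 CPM with Satb1 siRNA against 7.27 CPM with NT siRNA, a ratio of 2.20 (1.81 to 2.71). Sqle, the squalene epoxidase that limits the later part of the pathway, had 8.46 CPM with Satb1 siRNA against 5.33 CPM with NT siRNA, a ratio of 1.58 (1.24 to 2.04). Cyp51 had 18.1 CPM with Satb1 siRNA against 11.6 CPM with NT siRNA, a ratio of 1.56 (1.32 to 1.84). The intervals of Lss and Nsdhl included a ratio of 1, so a difference was not detectable at this depth. The counts behind the sterol enzymes were among the smallest, with Sqle at 188 counts with Satb1 siRNA and 102 with NT siRNA.

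The 11 further sterol synthesis genes that were found had lower medians than those 8, a difference that was not tested. The median log2 change of these 11 was -0.16 in the high experiment, where 5 fell (background 33.2%), 1 rose (32.8%) and 5 did not pass the test. Of the 11, 7 were below 0 in the low experiment, against 7254 of 12977 genes overall. Their median there was -0.23, beside -0.065 for all genes. Mvd, the decarboxylase of mevalonate diphosphate, fell by 0.62 on the log2 scale in the high experiment (3.31 and 3.58 CPM with Satb1 siRNA against 5.10 and 5.51 CPM with NT siRNA, edgeR adjusted p = 1.54e-08). Its low ratio was 0.779 (0.651 to 0.932).

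Among the sterol sensors and regulators, Insig1 lay on opposite sides of 0 in the 2 experiments and the SREBP genes did not pass the test. Insig1 encodes the membrane protein that holds SREBP back when sterol is plentiful and is itself an SREBP target. It had 92.8 and 90.8 CPM with Satb1 siRNA against 72.7 and 73.3 CPM with NT siRNA in the high experiment. The low libraries had 40.8 CPM with Satb1 siRNA against 72.7 CPM with NT siRNA. Insig1 rose by 0.34 (SE 0.023, edgeR adjusted p = 1.25e-21) in the high experiment, and its low ratio was 0.561 (0.515 to 0.610). The difference of the log2 effects (high minus low) was 1.17, with an edgeR adjusted p of 7.37e-31 over the libraries. Srebf1, which encodes the SREBP of fatty acid synthesis, had a log2 fold change of -0.079 (edgeR adjusted p = 0.0669) and a low ratio of 0.728 (0.678 to 0.782). Srebf2, which encodes the SREBP of sterol synthesis, had a log2 fold change of 0.045 (edgeR adjusted p = 0.306) and a low ratio of 1.19 (1.11 to 1.28).

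**Figure D4:**
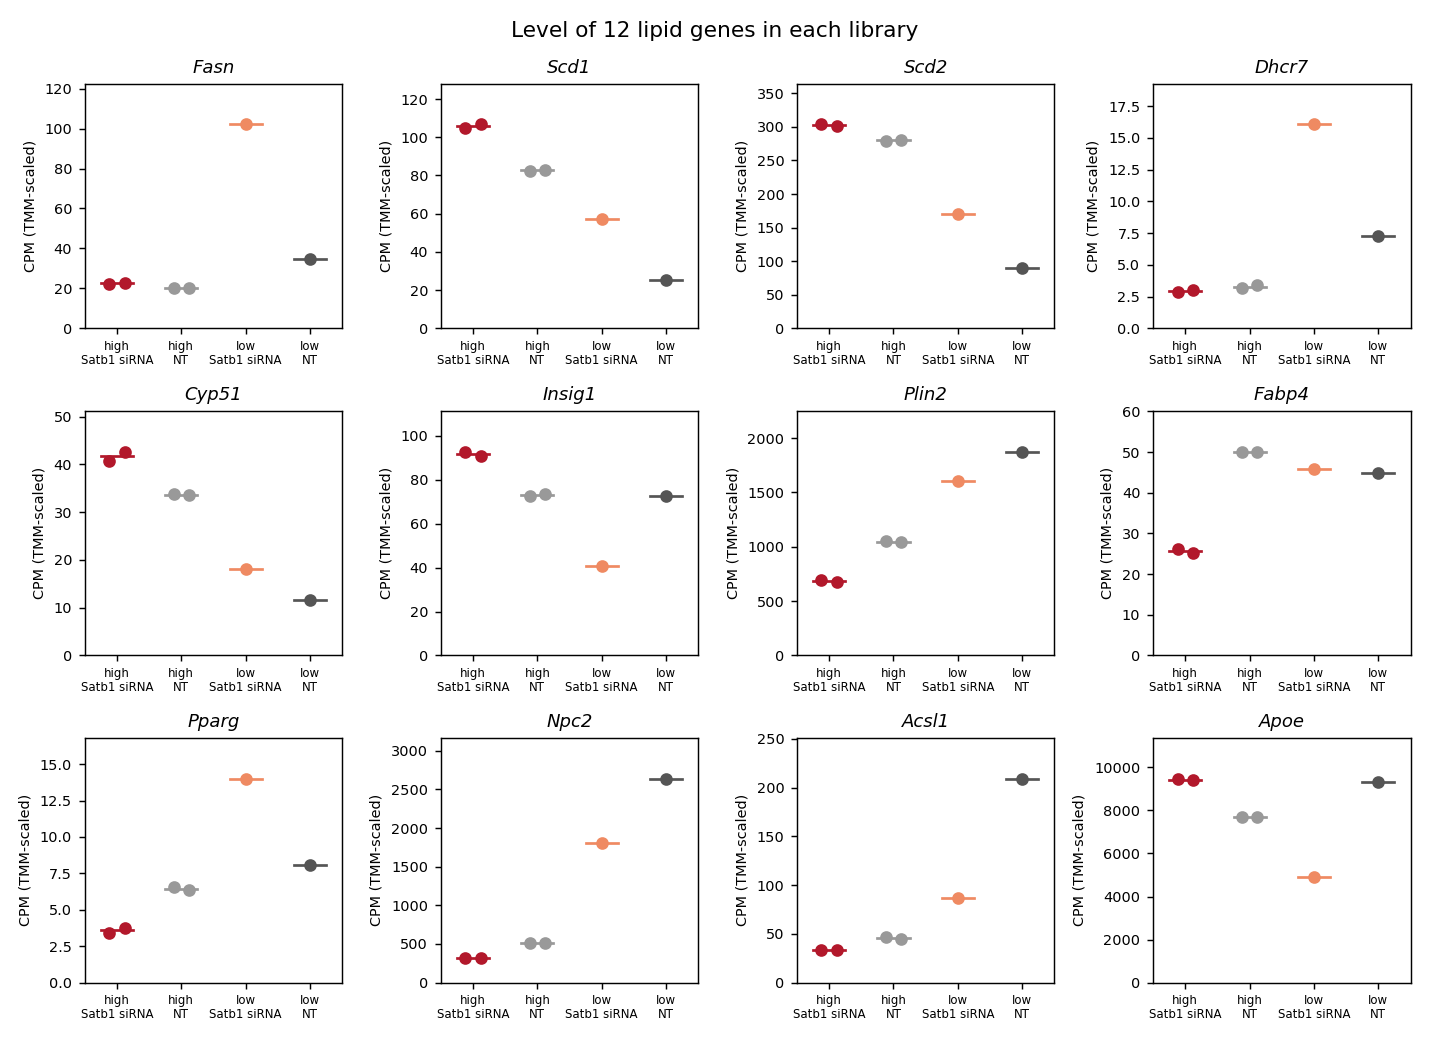
TMM-scaled CPM of 12 lipid genes in each library; points are libraries, short lines are group means and each axis starts at 0. Fasn stands at 102 CPM in the low Satb1 siRNA library against 20.3 to 34.6 CPM in the other 5, while Fabp4, Plin2, Pparg and Npc2 are lower with Satb1 siRNA than with NT siRNA in the high experiment.

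Uptake, carrier and storage genes were the group with the largest falls in the high experiment, where 6 of 6 fell (background 33.2%). Fabp4, a cytosolic carrier of fatty acids, had 26.2 and 25.2 CPM with Satb1 siRNA against 50.1 and 50.01 CPM with NT siRNA. Its log2 fold change of -0.96 (SE 0.031, edgeR adjusted p = 2.32e-40) was the largest fall of the 32 genes. The low libraries differed less, and Fabp4 had 45.85 CPM with Satb1 siRNA against 44.8 CPM with NT siRNA, a ratio of 1.02 (0.933 to 1.12). Pparg encodes the nuclear receptor that drives Fabp4, Cd36 and Plin2 in fat cells and macrophages. It had 3.42 and 3.77 CPM with Satb1 siRNA against 6.56 and 6.33 CPM with NT siRNA in the high experiment, a log2 fold change of -0.84 (SE 0.087, edgeR adjusted p = 1.21e-13). Pparg was on the other side in the low experiment, at 13.99 CPM with Satb1 siRNA against 8.10 CPM with NT siRNA, a ratio of 1.72 (1.42 to 2.11).

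Plin2, the coat protein of lipid droplets, had 691 and 680.4 CPM with Satb1 siRNA against 1050.1 and 1047 CPM with NT siRNA in the high experiment. It fell by 0.61 on the log2 scale (SE 0.0035, edgeR adjusted p = 1.03e-80). The low libraries had 1610 CPM with Satb1 siRNA against 1876 CPM with NT siRNA, a ratio of 0.858 (log2 -0.22) that turned to a log2 ratio of 0.13 with library size alone. Fabp5 fell by 0.48, Soat1, which esterifies cholesterol for storage, by 0.13, and Cd36 by 0.13. The low ratios were 0.852 for Fabp5, 0.836 for Soat1 and 0.689 for Cd36. With library size alone Fabp5 and Soat1 turned to low log2 ratios of 0.12 and 0.096. Of these 6 genes Fabp4 and Pparg had low ratios above 1 under the TMM scaling.

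Fat cells express Fabp4, Pparg and Cd36 strongly, and endothelial cells express Fabp4 and Cd36. The 6 adipocyte markers summed to 0.864 and 0.930 CPM with Satb1 siRNA and 0.727 and 0.846 CPM with NT siRNA in the high experiment, and to 0.315 and 0.209 CPM in the low Satb1 siRNA and NT libraries. Adiponectin (Adipoq) had 6 and 8 counts with Satb1 siRNA and 11 and 10 with NT siRNA in the high experiment, and 0 in both low libraries. The 6 endothelial markers summed to 11.3 and 11.5 CPM with Satb1 siRNA against 14.3 and 14.7 CPM with NT siRNA in the high experiment, a ratio of 0.784, with 4 called lower and 0 higher. The part of fat cells and endothelial cells in the fall of Fabp4 was not tested. Resident macrophage markers summed to 965 and 972 CPM with Satb1 siRNA against 629 and 626 CPM with NT siRNA. Most of that difference was Cd163, at 621 and 625 CPM with Satb1 siRNA against 318 and 317 CPM with NT siRNA, while 5 of the 7 markers were called higher and 1 lower. The 7 classical dendritic cell markers summed to 118 and 114 CPM with Satb1 siRNA against 210.4 and 210.4 CPM with NT siRNA. That list was divided, with 4 called higher and 3 lower, and H2-Ab1 and Itgax made up most of the lower sum. Over all genes tested 32.8% were called higher and 33.2% lower. The part of the macrophage and dendritic cell markers in these falls was not tested.

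Of 10 further genes of uptake and storage, 2 were called higher (background 32.8%), 4 lower (33.2%) and 4 not in the high experiment. The droplet gene Hilpda, listed under its older symbol 2310016C08Rik, inhibits triglyceride breakdown. It had 18.4 and 19.0 CPM with Satb1 siRNA against 36.9 and 36.3 CPM with NT siRNA in the high experiment and 68.3 CPM with Satb1 siRNA against 190.4 CPM with NT siRNA in the low one. It fell by 0.96 on the log2 scale (edgeR adjusted p = 9.74e-37), and its low ratio was 0.359 (0.337 to 0.381).

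Lysosomal release genes also fell, 3 of 3 in the high experiment (background 33.2%). Npc2, which hands cholesterol to Npc1 inside the lysosome, had 315 and 314 CPM with Satb1 siRNA against 511 and 517 CPM with NT siRNA. It fell by 0.71 (SE 0.0080, edgeR adjusted p = 1.12e-42). The low libraries likewise differed, and Npc2 had 1803 CPM with Satb1 siRNA against 2638 CPM with NT siRNA, a ratio of 0.683 (0.674 to 0.692). Lipa, the lysosomal acid lipase that frees cholesterol from its esters, had 598 and 589.9 CPM with Satb1 siRNA against 693 and 696 CPM with NT siRNA in the high experiment and fell by 0.22 (edgeR adjusted p = 4.97e-47). The low libraries had 668 CPM with Satb1 siRNA against 1008 CPM with NT siRNA, a ratio of 0.663. Npc1, the membrane exporter, fell by 0.10 and had a low ratio of 1.06. Of 3 further lysosomal genes 2 were called lower in the high experiment and 1 was not.

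The 5 efflux and LXR genes among the 32 did not move as a block. In the high experiment 1 was called higher (background 32.8%), 3 lower (33.2%) and 1 not. All 4 further efflux and LXR genes were called lower there, with log2 fold changes from -0.45 to -0.070. In the low experiment 3 of those 4 were below 0 and 1 above (background 44.1%). Apoe had 9473 and 9392 CPM with Satb1 siRNA against 7717 and 7707 CPM with NT siRNA in the high experiment, a rise of 0.30 (SE 0.0049, edgeR adjusted p = 3.54e-04). Apoe was on the other side in the low experiment, with 4920 CPM with Satb1 siRNA against 9336 CPM with NT siRNA, a ratio of 0.527 (0.523 to 0.531). Macrophages express Apoe strongly, and the summed resident macrophage markers had a ratio of 1.54 in the high and 0.643 in the low experiment (400.0 CPM with Satb1 siRNA against 622 CPM with NT siRNA). In the low experiment Emr1 (ratio 0.596) and Cd163 (0.540) carried the sum, while Gata6 (3.47), Vsig4 (1.499) and Prg4 (1.25) lay above 1. The part of these cells in the values of Apoe was not tested. Nr1h3, which encodes LXR alpha, was lower in both. It had 3.56 and 3.42 CPM with Satb1 siRNA against 4.66 and 4.96 CPM with NT siRNA in the high experiment, a fall of 0.46 (SE 0.093, edgeR adjusted p = 1.57e-05), and 35.8 CPM with Satb1 siRNA against 55.4 CPM with NT siRNA in the low one, a ratio of 0.646 (0.588 to 0.708). The cholesterol exporter genes Abca1 and Abcg1 and Mylip, the ubiquitin ligase for lipoprotein receptors, are all LXR targets. Abca1 had a log2 fold change of -0.022 (edgeR adjusted p = 0.0310) that turned to 0.033 with library size alone, and a low ratio of 0.832 (log2 -0.27) that turned to a log2 ratio of 0.090. Abcg1 fell by 0.17 in the high experiment and had a low ratio of 1.05. Mylip had a log2 fold change of -0.0078 (edgeR adjusted p = 0.779) and a low ratio of 1.07. Of the 3, Abca1 was below 0 in both experiments like Nr1h3 under the scaling used, and the other two were not.

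Acsl1, which activates long-chain fatty acids, had the lowest ratio of all 32 genes in the low experiment. It had 86.7 CPM with Satb1 siRNA against 209 CPM with NT siRNA there, a ratio of 0.415 (0.392 to 0.438). The high libraries had 33.1 and 33.4 CPM with Satb1 siRNA against 46.4 and 44.8 CPM with NT siRNA, a fall of 0.45 (SE 0.030, edgeR adjusted p = 3.67e-22). Summed neutrophil markers were also lower with Satb1 siRNA in the low experiment (ratio 0.311). In the high experiment their ratio was 1.15, and of the 5 found 3 were called higher (background 32.8%) and 1 lower (33.2%). The part of neutrophils in the values of Acsl1 was not tested. Cpt1a, which carries fatty acids into mitochondria, rose by 0.13 in the high experiment and had a low ratio of 0.904 (log2 -0.15), which turned to a log2 ratio of 0.21 with library size alone.

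Both experiments were then fitted together, with repeats summed to 1 sample per group and the experiment as a term, which leaves 1 residual degree of freedom. In edgeR 0 of the 32 genes passed an adjusted p of 0.05, against 0.0315% of all 19068 genes (6 genes). Satb1 itself did not pass either (joint log2 change -1.28, edgeR adjusted p = 0.618). The count of 0 therefore does not show that the lipid genes were unchanged. At an unadjusted p under 0.05 there were 6 of 32, against 8.56% of all genes. Their joint log2 changes were -0.86 for Acsl1, -0.63 for Npc2, -0.54 for Nr1h3, 0.47 for Cyp51, 0.52 for Scd2 and 0.75 for Scd1, with edgeR adjusted p between 0.423 and 0.576. DESeq2 also called 0, with 5 at an unadjusted p under 0.05. With library size alone edgeR called Scd1, Scd2 and Fasn, and without a filter on low counts it called Scd1 and Acsl1.

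The direction of change was the same in both experiments for 22 of 32 genes, or 68.8%, under the TMM scaling, against 63.9% of the 12920 genes with a value in both. Across the 32 genes the log2 changes of the experiments, which share no control library, had a Pearson r of 0.236 and a Spearman rho of 0.326, and across all genes 0.257 and 0.318. These are descriptions across genes, which are not independent. The difference of the effects (high minus low) was called in edgeR for 25 of 32 genes, against 39.7% of 20971 genes tested, a test whose spread comes from the near-identical high repeats alone. Of the 25, 9 had a larger value in the high and 16 in the low experiment (background of the second 21.8%). The changes of the 16 synthesis genes ran from -0.17 to 0.36 in the high and from -0.83 to 1.56 in the low experiment on the log2 scale.

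The control libraries already differed across all genes, and the lipid genes were no exception. In the low NT library 12 of the 32 genes were at least 1.5-fold higher than in the high NT libraries and 8 at least 1.5-fold lower, against 36.2% and 31.3% of 13595 genes. Nr1h3 had 55.4 CPM in the low experiment's NT library and 4.66 and 4.96 CPM in those of the high experiment. Npc2 had 2638 CPM (low NT) against 511 and 517 CPM (high NT), and Acsl1 209 CPM (low NT) against 46.4 and 44.8 CPM (high NT). Scd1 was on the other side, with 25.4 CPM (low NT) against 82.5 and 83.1 CPM (high NT), as were Scd2, Cyp51 and Acaca. Insig1, Npc1 and Soat1 differed little between the controls, with log2 ratios (low NT over high NT) of -0.0060, 0.027 and 0.027. The experiments were separate, and their cell makeup and any batch cannot be told apart.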

How the data were processed

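RNA of 6 libraries was measured (TruSeq Stranded Total RNA, per the labels' protocols). The deposited table gives, per the file headers, an FPKM value and a count per gene and library. The authors' counts are taken for RSEM expected counts (estimated counts, already whole), since RSEM 1.2.12, DESeq2 and mm9 are named in the submitters' processing notes; the aligner, filters and strand handling: not given in the sources used here. RSEM divides shared reads among similar genes such as Scd1 and Scd2. A count of 0 allows 3 counts, or 0.0421 to 0.122 CPM; intervals cover counting error only, as PCR copies are not independent molecules.

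The high experiment was tested with edgeR 4.0.16 in R 4.3.3 (quasi-likelihood, robust, TMM, filterByExpr, Benjamini-Hochberg over all genes tested, two-sided, threshold 0.05). SE is the log2 fold change over the root of F. The low experiment has no test; log2 ratios use TMM over 6 libraries, a prior count of 2 and exact 95% binomial intervals. CPM in the text are TMM-scaled over 6 libraries. DESeq2 1.42.0 was an alternative. Named genes were all members found, further pathway genes past 1.5-fold in the high experiment (up to 3 per role, mean log2 CPM of at least 1), and Satb1; 1 further gene that this rule names is not reported here. Fads2 and the cell type markers named (Itgax, H2-Ab1, Flt3, Emr1, Cd163, Gata6, Vsig4, Prg4, Adipoq, Chi3l3, F13a1, Ly6c2, Plac8, Ccr2) fall outside it and were chosen after their values were seen. Members and lists were chosen with earlier results of these data known. Of 54 further pathway genes 51 were found. The fits were also run on simulated counts with independent repeats and the same control levels in both experiments. The high repeats here are near-identical and the controls differ, so that run does not show how the fits perform on these libraries. Promoter windows are from RefSeq on GRCm38.p6, not mm9.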

Additional observations from a re-analysis of the deposited data

Results flagged for a closer look

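The effect of Satb1 siRNA differed between the experiments for 25 of the 32 genes, against 39.7% of 20971 genes tested. That edgeR test of the difference (high minus low, log2 scale) compares libraries, and its spread comes from the high repeats alone. Under the TMM scaling, values on opposite sides of 0 in the 2 experiments were seen for Pparg (difference -1.63), Dhcr7 (-1.32), Apoe (1.21), Insig1 (1.17), Fabp4 (-0.99), Fdft1 (-0.64), Cpt1a (0.27), Abcg1 (-0.24) and Npc1 (-0.19), though Dhcr7 did not pass the test in the high experiment and the low interval of Fabp4 included a ratio of 1. Synthesis genes above 0 in both experiments, and more so in the low one, were Fasn (-1.42), Scd1 (-0.81), Scd2 (-0.81), Sqle (-0.67), Cyp51 (-0.33), Acaca (-0.28) and Srebf2 (-0.21). Genes below 0 in both under that scaling, and further below in the low experiment, were Acsl1 (0.82), Cd36 (0.40), Srebf1 (0.37), Lipa (0.37), Abca1 (0.24) and Soat1 (0.12). Those further below in the high experiment, were Plin2 (-0.39), Fabp5 (-0.26) and Npc2 (-0.16). With library size alone Abca1, Soat1, Plin2, Fabp5 and Cpt1a were above 0 in the low experiment, and Abca1 also in the high one.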

How the results depend on the processing

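Counts of genes called in the high experiment stayed within 1.5 times under every alternative run. Same-numbered high libraries did not deviate together (correlation -0.0403), so the numbers were not taken as pairs, and with the number as a block 9 genes were higher and 14 lower, as without it. Leaving out 1 high library each gave 9 higher and 14 lower, synthesis medians of 0.035 to 0.092 and medians of the others of -0.20 to -0.19. With library size alone the high medians were 0.12 for synthesis and -0.14 for the others. The median of the others was -0.20 in DESeq2, without a filter and with 4 group means. Abca1 turned to 0.033 with library size alone. In the low experiment library size alone gave 12 genes at least 1.5-fold higher and 1 lower, medians of 0.70 for synthesis and 0.11 for the others, and 0.29 for all genes. With it 6 genes turned from below to above 0 in the low experiment: Cpt1a (0.21), Nsdhl (0.24), Plin2 (0.13), Fabp5 (0.12), Soat1 (0.096) and Abca1 (0.090). TMM over the 2 low libraries gave 3 genes at least 1.5-fold lower and -0.20 for the others' median. In the joint fit edgeR called 3 genes with library size alone and 2 without a filter, against 0. The difference between experiments turned sign with library size alone for Abca1 (-0.057), Soat1 (-0.17) and Cpt1a (-0.028). The cause of these shifts was not tested, beyond that rescaling moves all genes together. Counts limit the sterol enzymes most, and the low experiment has no replicate.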
